A study of Mus musculus with 14 samples.

Results

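Interferon-stimulated genes are the genes that cells switch on when interferon or viral nucleic acid is sensed. A list of 36 of them was followed through all libraries of this study of mouse male germ cells, by reading their rows by gene symbol. The list was chosen with earlier results of these data known. Of the 24340 gene symbols in the deposited tables, all 36 listed genes were present, and 25 passed the minimum for testing (at least 1 RPKM, read number scaled to transcript length and to library size, in at least 2 libraries). The question was whether loss of the histone H3 lysine 9 (H3K9) demethylases Jmjd1a and Jmjd1b, listed in the tables as Kdm3a and Kdm3b, raised or lowered these genes as a set.

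The study sequenced RNA of germ cells of testes from C57BL/6 mice at postnatal day 3 (P3) or day 7 (P7), in 14 libraries that form 7 groups of 2. P3 WT was wild type per its label. P3 Ctrl and P7 Ctrl carried Vasa-Cre and were Jmjd1a-/+ and Jmjd1b-/+, so the controls also lacked 1 copy of each gene. P3 Jmjd1aKO was Vasa-Cre with Jmjd1a-/- and Jmjd1b-/+, P3 Jmjd1bKO was Vasa-Cre with Jmjd1a-/+ and Jmjd1b-/-, and P3 DKO and P7 DKO were Vasa-Cre with Jmjd1a-/- and Jmjd1b-/-. Vasa-Cre acts in the germ line, so somatic cells carried along with the germ cells keep the genes. No cell sort is described in the labels, and nothing there ties the libraries of a group to separate animals, so p-values reflect the scatter among these libraries, which may be technical. In RNA of many cells, fewer cells of a type and less RNA per cell cannot be told apart.

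Interferons bind receptors at the cell surface, the receptor-bound kinases Jak1 and Tyk2 phosphorylate STAT proteins such as Stat2, and the complex ISGF3, which holds Stat2 and Irf9, enters the nucleus. ISGF3 binds interferon-stimulated response elements, in which GAAA repeats recur, whereas the response to interferon gamma runs through gamma-activated sites of the form TTCNNNGAA. Many of these genes are also transcribed at a low level without any interferon. H3K9 methylation is a mark of repressed chromatin that JMJD1A and JMJD1B remove, and loss of H3K9 methylation in other settings is known to set off interferon signalling through RNA of repeats.

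Promoter sequences are shown for 5 members to make visible what the near-silent and the well-expressed members carry upstream of their starts. RefSeq windows of 300 bases (250 before to 50 after each start, GRCm38.p6) were found for 26 members. Each sequence below is the 250-base upstream part, 5′ to 3′ on the strand of the gene, with matches of either motif, on either strand, in capitals. Isg15 is the standard inducible member and stayed under 1 RPKM in every library, Bst2, Stat2 and Irf1 were expressed throughout, and Oasl2 had the largest fall of the list on the log2(RPKM + 1) scale.
Isg15 (chr4:156200819-156201068, minus strand): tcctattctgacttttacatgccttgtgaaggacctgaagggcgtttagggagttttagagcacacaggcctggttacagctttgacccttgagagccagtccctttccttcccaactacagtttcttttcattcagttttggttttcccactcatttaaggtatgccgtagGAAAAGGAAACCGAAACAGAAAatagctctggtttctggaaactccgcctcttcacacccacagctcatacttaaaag
Bst2 (chr8:71537473-71537722, minus strand): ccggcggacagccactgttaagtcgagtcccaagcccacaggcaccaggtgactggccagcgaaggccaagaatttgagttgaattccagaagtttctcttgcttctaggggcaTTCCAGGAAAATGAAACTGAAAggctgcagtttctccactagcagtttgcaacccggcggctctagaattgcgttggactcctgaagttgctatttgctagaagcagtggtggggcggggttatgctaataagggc
Stat2 (chr10:128270248-128270497, plus strand): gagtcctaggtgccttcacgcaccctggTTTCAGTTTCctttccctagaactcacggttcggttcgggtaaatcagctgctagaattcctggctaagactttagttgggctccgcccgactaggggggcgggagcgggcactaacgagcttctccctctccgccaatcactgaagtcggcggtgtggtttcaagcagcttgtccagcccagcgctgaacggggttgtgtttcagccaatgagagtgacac
Irf1 (chr11:53769764-53770013, plus strand): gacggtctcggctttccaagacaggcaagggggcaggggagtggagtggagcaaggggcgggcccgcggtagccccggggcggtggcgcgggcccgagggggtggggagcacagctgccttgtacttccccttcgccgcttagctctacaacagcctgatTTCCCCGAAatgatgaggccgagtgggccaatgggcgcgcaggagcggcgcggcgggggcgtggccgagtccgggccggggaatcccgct
Oasl2 (chr5:114896684-114896933, plus strand): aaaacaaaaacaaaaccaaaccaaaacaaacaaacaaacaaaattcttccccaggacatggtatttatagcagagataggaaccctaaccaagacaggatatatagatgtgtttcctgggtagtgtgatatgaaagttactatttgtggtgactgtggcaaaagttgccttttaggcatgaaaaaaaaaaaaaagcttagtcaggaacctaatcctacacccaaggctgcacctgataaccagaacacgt

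The first motif searched, GAAANNGAAA on either strand, occurred in 11 of the 31 300-base windows of the 26 members, against 3.44% of the 32851 windows of all genes. These 11 windows belong to 11 members. Isg15 holds 3 overlapping copies, Bst2 holds 2, and Stat2 holds 1 on the opposite strand. The second motif, TTCNNNGAA, which reads the same on both strands, occurred in 9 of the 31 windows, of 9 members, against 8.3% of all windows. In Bst2 its match overlaps the first motif, and Irf1 holds 1 match of its own. Neither motif was in the window of Oasl2, which says only that these letters are not in those bases. Of the 12 members that fell in P7 DKO, 8 have a window: Stat2 and Bst2 hold the first motif, and Irf1, Bst2, Ifi35, Adar and Samhd1 the second. Of the 11 members too low to be tested, 7 have a window, and Isg15, Ifit1, Ifit3 and Ifitm3 hold the first motif.

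The list split by level, from nearly silent to well expressed. Of the 36 members, 11 reached 1 RPKM in at most 1 library. Isg15, a ubiquitin-like modifier, lay between 0.0740 and 0.910 RPKM, Ifit1, which binds foreign RNA ends, between 0 and 0.0847 RPKM, and Ifit3 between 0 and 0.163 RPKM. The RNA-activated enzyme gene Oas2 reached 0.127 RPKM at most, the antiviral GTPase gene Mx2 0.410 RPKM, and the nucleic acid sensor gene Zbp1 0.118 RPKM. Ifi44, Rtp4, Lgals3bp and Cmpk2 also stayed under 1 RPKM in every library. Ifitm3, which blocks viral entry, reached 1.05 RPKM in 1 library, P3 Jmjd1aKO replicate 2. These 11 members were not tested. Ifit3 and Oas1a have near-identical copies, Ifit3b and Oas1g, and Rtp4 overlaps Masp1, so their values are uncertain.

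At the other end, 7 members reached 10 RPKM or more in at least 1 library: Irf1, Bst2, Ifi27, Xaf1, Trim25, Adar and Samhd1. The members tested with a mean of at least 2 RPKM over the 14 libraries numbered 15, and the other 10 tested members had lower means. All 18 interferon genes of a list of ligands were below the minimum for testing, 11 of them were listed at 0 in every library, and the highest value was 0.280 RPKM, of Ifnl2. The transcripts of the interferons themselves were thus at or near 0 in these libraries.

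**Figure D1:**
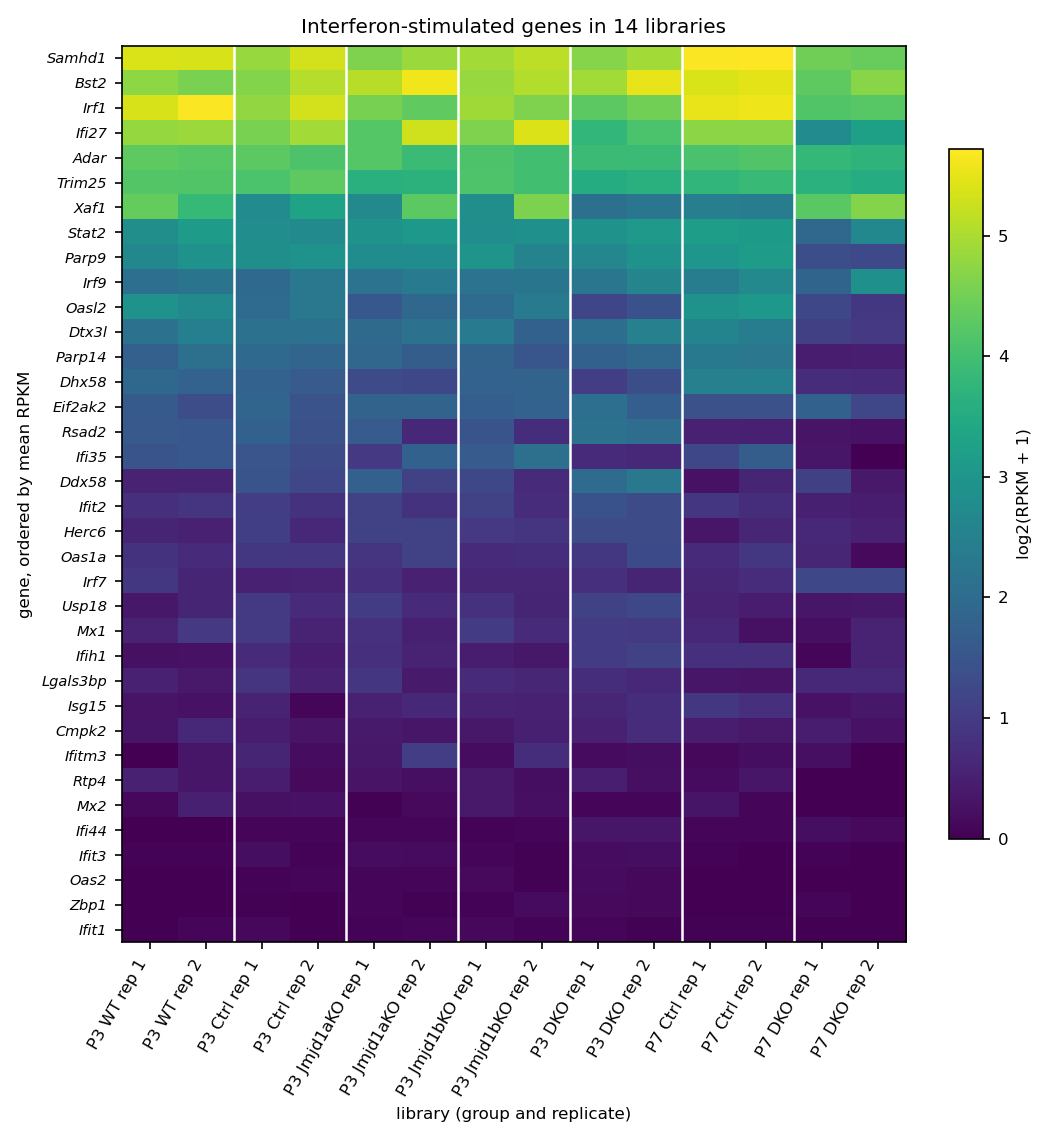
Heat map of log2(RPKM + 1) for the 36 members (rows, ordered by mean RPKM) in the 14 libraries (columns, with white lines between groups). Samhd1, Bst2, Irf1 and Ifi27 are the brightest rows, the lowest rows are dark in every library, and Parp9, Parp14, Dtx3l and Dhx58 darken in the P7 DKO columns.

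Depth, estimated from the steps between low RPKM values, was 14.9 to 56.4 M (mega) fragments per library and lowest in P3 WT. At those depths, 1 fragment of a transcript of 2 kb is worth 0.00887 to 0.0335 RPKM. Ddx4, the germ line helicase gene whose promoter drives Vasa-Cre, ran from 169.5 to 307 RPKM over the libraries. Kdm3a stood at 28.4 and 26.3 RPKM in P3 Ctrl against 12.1 and 14.3 in P3 DKO, and at 27.2 and 27.1 in P7 Ctrl against 8.97 and 7.59 in P7 DKO. Kdm3b stood at 10.2 and 13.5 RPKM in P3 Ctrl against 4.26 and 4.48 in P3 DKO, and at 17.3 and 16.1 in P7 Ctrl against 6.49 and 6.73 in P7 DKO. Both were thus lower in the libraries labelled DKO, with RNA left. In P3 Jmjd1aKO Kdm3a stood at 9.83 and 9.84 RPKM, and in P3 Jmjd1bKO Kdm3b stood at 4.72 and 7.51 RPKM. A pair of libraries stood apart: the summed RPKM of 12 markers of Sertoli cells, which nurse germ cells in the tubule, was 924 in P3 Jmjd1aKO replicate 2 and 1098 in P3 Jmjd1bKO replicate 2, against 118 to 267 in the other 12 libraries.

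The comparison of P7 DKO with P7 Ctrl asks what joint loss of both demethylases does at day 7, and it held most of the changes of the list. Of the 25 members tested, 12 fell, 2 rose and 11 did not pass (limma on log2(RPKM + 1), Benjamini-Hochberg adjusted p under 0.05 over all 14772 genes tested). Irf7, 1 of the 2 that rose, was tested only through its P7 DKO libraries, so its rise follows from the filter. Over all genes tested, 33.5% were past the threshold in this comparison, 16.1% lower and 17.4% higher. The median log2 change of the tested members was -0.43, against 0.02 over all genes tested. It was -0.68 without P7 DKO replicate 2, -0.98 with a pseudocount of 0.1 and -0.22 over all 36 members without a filter. The summed RPKM of all 36 members was 244.7 and 254.6 in P7 Ctrl, and 124.8 and 140.6 in P7 DKO. Among the 15 tested members with a mean of at least 2 RPKM, 11 fell and 1 rose, and among the 10 with a lower mean, 1 fell and 1 rose. The scale of RPKM + 1 understates the change of low genes.

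A run of neighbouring genes, Parp9, Dtx3l and Parp14, fell together. Parp9 is an ADP-ribosyltransferase family member that works as a complex with the ubiquitin ligase Dtx3l, and Parp14 is another member of the same enzyme family. Parp14 stood at 2.39 and 3.3 RPKM in P3 WT, 2.87 and 2.62 in P3 Ctrl, 2.72 and 2.2 in P3 Jmjd1aKO, 2.51 and 1.87 in P3 Jmjd1bKO and 2.41 and 2.73 in P3 DKO. It stood at 3.96 and 3.78 RPKM in P7 Ctrl and 0.363 and 0.402 in P7 DKO, so that the 10 P3 libraries and P7 Ctrl all lay above 1.8 RPKM and P7 DKO alone lay far below. The ratio of means was 10.1-fold lower in P7 DKO (log2 change -1.82 ± 0.17 SE, limma adjusted p = 8.00e-05). Parp9 stood at 5.32 and 6.58 RPKM in P3 WT, 6.24 and 6.5 in P3 Ctrl, 5.84 and 5.84 in P3 Jmjd1aKO, 6.81 and 4.86 in P3 Jmjd1bKO and 5.24 and 6.56 in P3 DKO. Its day 7 levels were 7.03 and 7.87 RPKM in P7 Ctrl and 1.58 and 1.4 in P7 DKO, 5.0-fold lower in DKO (-1.76 ± 0.17, limma adjusted p = 0.000101). Dtx3l stood at 3.49 and 4.5 RPKM in P3 WT, 3.37 and 3.46 in P3 Ctrl, 2.97 and 3.42 in P3 Jmjd1aKO, 4.08 and 2.43 in P3 Jmjd1bKO and 3.2 and 4.61 in P3 DKO. Its day 7 levels were 5.0 and 4.41 RPKM in P7 Ctrl and 1.12 and 0.937 in P7 DKO, 4.57-fold lower in DKO (-1.49 ± 0.21, limma adjusted p = 0.000791). For all 3 genes the P7 DKO libraries lay below each of the other 12 libraries.

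These 3 genes lie together on chromosome 16 (GRCm38, GENCODE M21): Parp14 at 35832874 to 35871544 on the minus strand, Dtx3l at 35926511 to 35939151 on the minus strand and Parp9 at 35938470 to 35972605 on the plus strand. Dtx3l and Parp9 start head to head and overlap by 682 bases in the annotation, so a few of their fragments could be assigned to either, although the library kit keeps the strand. None of the 7 other tested genes within 300 kb of the start of Parp9 fell past the threshold. Over all genes tested, 16.1% were lower and 17.4% higher in P7 DKO, so few falls among 7 genes would be usual. Kpna1, an importin gene next to Parp9, stood at 35.4 and 37.3 RPKM in P7 Ctrl and 37.6 and 25.1 in P7 DKO (log2 change -0.23 ± 0.21, limma adjusted p = 0.425). Hspbap1 changed by -0.34 ± 0.17 and Fam162a by 0.20 ± 0.14, neither past the threshold (limma adjusted p = 0.150 and 0.304). Dirc2 rose by 0.43 ± 0.13, Ccdc58 by 0.69 ± 0.15 and 2010005H15Rik by 1.17 ± 0.38 on the log2 scale (limma adjusted p = 0.0298, 0.00724 and 0.0404), and the predicted gene Gm5416 did not pass. Of the other members that changed at day 7, 4 are also on 1 chromosome but far apart: on chromosome 11, Irf1 lies at 53770014 to 53778374, Xaf1 at 72301629 to 72313733, Dhx58 at 100694884 to 100704271 and Ifi35 at 101448407 to 101458698.

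**Figure D2:**
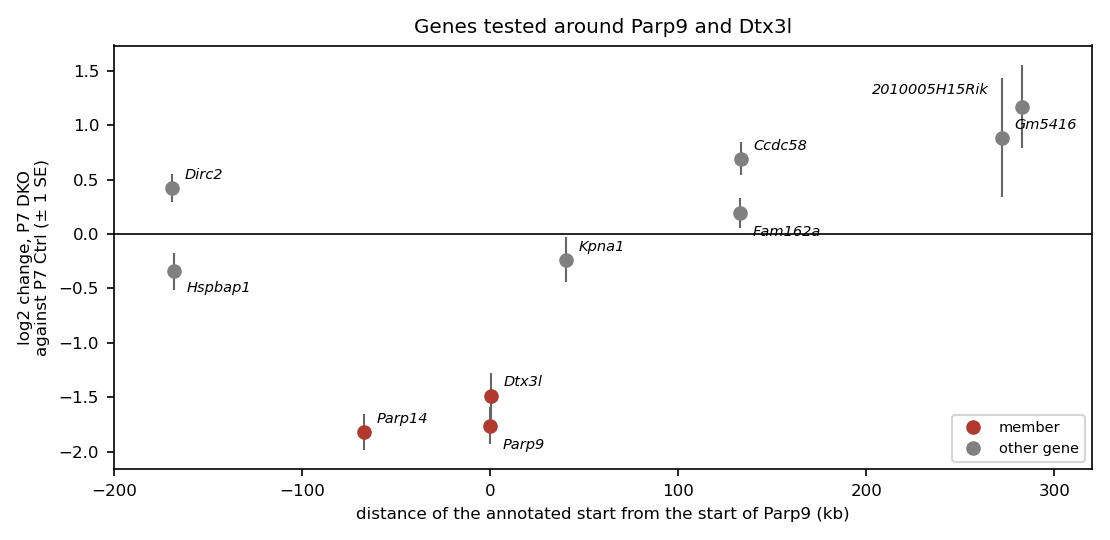
Log2 change of P7 DKO against P7 Ctrl (vertical, ± 1 SE) for each tested gene within 300 kb of the start of Parp9, by the distance of its annotated start in kb (horizontal). Parp14, Parp9 and Dtx3l, in red, lie between -1.82 and -1.49, and the 7 other genes, in grey, between -0.34 and 1.17.

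Of the transcription factors of the list, Irf1 and Stat2 fell. Irf1, a factor that interferon gamma induces and that activates many antiviral genes, stood at 40.3 and 50.7 RPKM in P3 WT, 26.7 and 39.3 in P3 Ctrl, 22.3 and 19.1 in P3 Jmjd1aKO, 28.9 and 23.3 in P3 Jmjd1bKO and 18.5 and 21.7 in P3 DKO. Its levels at day 7 were 45.3 and 46.5 RPKM in P7 Ctrl and 17 and 17.7 in P7 DKO, 2.65-fold lower in DKO with no overlap (log2 change -1.35 ± 0.19, limma adjusted p = 0.000649). Stat2, the ISGF3 subunit specific to type I and III interferon, stood at 6.13 and 7.88 RPKM in P3 WT, 6.02 and 5.7 in P3 Ctrl, 6.57 and 7.22 in P3 Jmjd1aKO, 6.02 and 6.26 in P3 Jmjd1bKO and 6.59 and 7.36 in P3 DKO. In the older libraries it stood at 8.3 and 7.65 RPKM in P7 Ctrl and 2.76 and 5.4 in P7 DKO, a fall of 0.87 ± 0.22 on the log2 scale without overlap, in which the DKO libraries differed more from each other than the nearer one did from the controls (limma adjusted p = 0.0133). Irf9, the DNA-binding subunit of ISGF3, which overlaps Rnf31 on the same strand, stood at 4.31 and 5.45 RPKM in P7 Ctrl and 2.61 and 6.26 in P7 DKO, with the controls inside the range of the DKO libraries (-0.19 ± 0.29, limma adjusted p = 0.666). Irf7, the factor that amplifies interferon transcription, stood at 0.899 and 0.504 RPKM in P3 WT, 0.432 and 0.471 in P3 Ctrl, 0.711 and 0.43 in P3 Jmjd1aKO, 0.529 and 0.526 in P3 Jmjd1bKO and 0.744 and 0.512 in P3 DKO. Day 7 brought 0.538 and 0.656 RPKM in P7 Ctrl and 1.35 and 1.36 in P7 DKO, a rise of 0.56 ± 0.16 on the log2 scale (limma adjusted p = 0.0245). Irf7 was tested only because of its level in P7 DKO, where alone it exceeded 1 RPKM, and it overlaps Phrf1 on the other strand.

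Among the RNA sensors, Dhx58 fell and the others did not pass. Dhx58 encodes LGP2, a helper of the sensors RIG-I (Ddx58) and MDA5 (Ifih1). It stood at 2.81 and 2.47 RPKM in P3 WT, 2.48 and 2.13 in P3 Ctrl, 1.51 and 1.38 in P3 Jmjd1aKO, 2.48 and 2.51 in P3 Jmjd1bKO and 1.04 and 1.61 in P3 DKO. At day 7 it stood at 4.64 and 4.72 RPKM in P7 Ctrl and 0.687 and 0.603 in P7 DKO, with both DKO libraries below every other library of the study. The fall was 7.25-fold (log2 change -1.79 ± 0.15, limma adjusted p = 5.41e-05). Ddx58 stood at 0.222 and 0.512 RPKM in P7 Ctrl and 1.13 and 0.316 in P7 DKO, with overlapping groups (0.30 ± 0.29, limma adjusted p = 0.482). Ifih1 stood at 0.735 and 0.729 RPKM in P7 Ctrl and 0.0772 and 0.486 in P7 DKO, lower in both DKO libraries but not past the threshold (-0.45 ± 0.18, limma adjusted p = 0.0787).

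Oasl2, Samhd1, Bst2 and Adar, which act on viral RNA, replication or release, fell, whereas Oas1a, Mx1, Rsad2, Eif2ak2 and Ifit2 did not pass. Oasl2, an oligoadenylate synthetase-like gene, stood at 6.71 and 5.66 RPKM in P3 WT, 3.02 and 3.92 in P3 Ctrl, 2.0 and 2.82 in P3 Jmjd1aKO, 3.0 and 4.2 in P3 Jmjd1bKO and 1.28 and 1.73 in P3 DKO. It stood at 6.49 and 7.32 RPKM in P7 Ctrl and 1.38 and 0.908 in P7 DKO, 6.04-fold lower in DKO (log2 change -1.89 ± 0.21, limma adjusted p = 0.000185). Samhd1, which degrades dNTPs and so starves retroviruses, had the highest mean RPKM of the list, at 41.4 and 40.6 RPKM in P3 WT, 27.6 and 39.4 in P3 Ctrl, 23.3 and 28 in P3 Jmjd1aKO, 29.4 and 34.4 in P3 Jmjd1bKO and 24.7 and 29.2 in P3 DKO. The P7 libraries held 50.3 and 51.7 RPKM in P7 Ctrl and 21.4 and 20 in P7 DKO, with both controls above every other library and both DKO libraries below every other library (2.46-fold lower, -1.26 ± 0.16, limma adjusted p = 0.000448). Bst2, or tetherin, which holds budding virus at the cell surface, stood at 25.9 and 22.7 RPKM in P3 WT, 24.4 and 33.1 in P3 Ctrl, 33.5 and 47.5 in P3 Jmjd1aKO, 27.8 and 32.6 in P3 Jmjd1bKO and 29.4 and 44.7 in P3 DKO. Its day 7 levels were 41.1 and 44.1 RPKM in P7 Ctrl and 18.6 and 25 in P7 DKO, a fall of 0.95 ± 0.24 on the log2 scale (limma adjusted p = 0.0135), with no overlap at day 7 although the P3 libraries spanned both levels. Adar, which edits double-stranded RNA and keeps it from being sensed, stood at 18.8 and 17.9 RPKM in P3 WT, 18.4 and 16.4 in P3 Ctrl, 17.6 and 13.9 in P3 Jmjd1aKO, 16.4 and 14.8 in P3 Jmjd1bKO and 14 and 14 in P3 DKO. The P7 levels were 16 and 17.1 RPKM in P7 Ctrl and 13.1 and 12.2 in P7 DKO, a small fall of 0.36 ± 0.12 on the log2 scale without overlap (limma adjusted p = 0.0461). Its gene overlaps Chrnb2 on the other strand.

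Ifi27, a mitochondrial protein gene, stood at 27.1 and 27.9 RPKM in P3 WT, 22.8 and 29.2 in P3 Ctrl, 17.6 and 38.3 in P3 Jmjd1aKO, 23.5 and 41.6 in P3 Jmjd1bKO and 12.9 and 16.2 in P3 DKO. The P7 libraries held 25.3 and 25.4 RPKM in P7 Ctrl and 5.74 and 8.58 in P7 DKO, 3.54-fold lower in DKO (log2 change -1.71 ± 0.35, limma adjusted p = 0.00479). Both P7 DKO libraries were the lowest of the study for Ifi27, and the highest were the 2 Sertoli-rich ones. Ifi35 stood at 1.79 and 1.94 RPKM in P3 WT, 1.87 and 1.48 in P3 Ctrl, 0.94 and 2.43 in P3 Jmjd1aKO, 2.12 and 3.31 in P3 Jmjd1bKO and 0.604 and 0.565 in P3 DKO. It stood at 1.38 and 2.22 RPKM in P7 Ctrl and 0.276 and 0 in P7 DKO, where the last value is a listed 0 (-1.29 ± 0.28, limma adjusted p = 0.00650). Ifi35 was low in both DKO groups, with no overlap with the controls at either age. Xaf1, a proapoptotic partner of XIAP, went the other way, at 19.8 and 13.3 RPKM in P3 WT, 5.8 and 8.84 in P3 Ctrl, 5.5 and 18.4 in P3 Jmjd1aKO, 6.12 and 23.2 in P3 Jmjd1bKO and 3.34 and 3.72 in P3 DKO. At day 7 it stood at 4.44 and 4.39 RPKM in P7 Ctrl and 18 and 24.1 in P7 DKO, 4.78-fold higher in DKO without overlap (2.02 ± 0.58, limma adjusted p = 0.0235). Its highest levels elsewhere were in P3 WT and the 2 Sertoli-rich libraries.

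**Figure D3:**
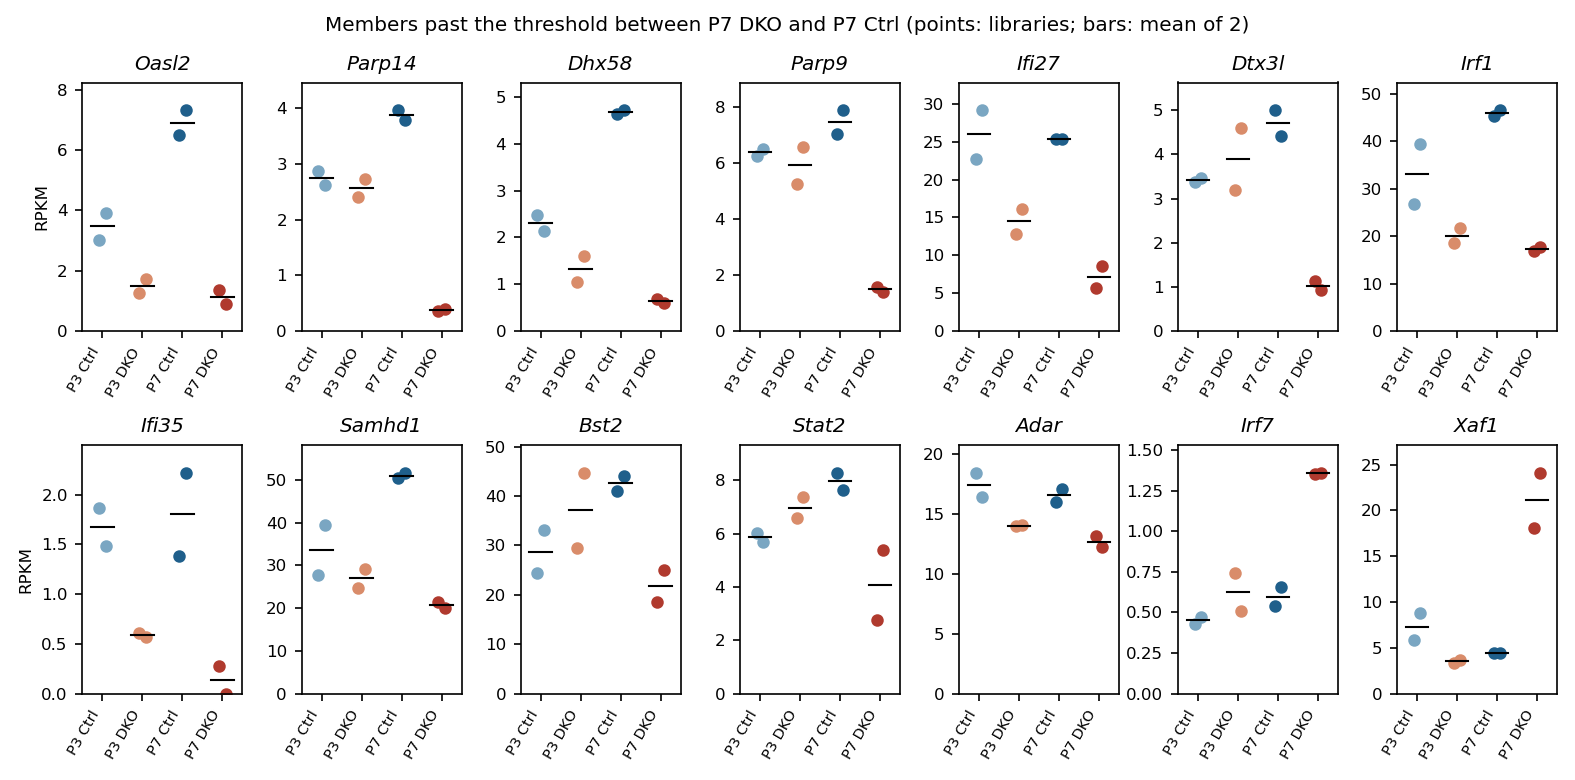
RPKM (vertical) of the 14 members past the threshold between P7 DKO and P7 Ctrl, with 1 panel per gene and 4 groups per panel (points are libraries, bars are means of 2). The 12 genes that fell have their lowest mean in P7 DKO, whereas Irf7 and Xaf1 are highest there among the 4 groups.

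The 11 tested members that did not pass at day 7 were Ifit2, Irf9, Oas1a, Mx1, Ddx58, Ifih1, Rsad2, Usp18, Eif2ak2, Trim25 and Herc6. Their log2 changes ran from -0.45 to 0.30. Eif2ak2, the RNA-activated kinase PKR, stood at 1.69 and 1.66 RPKM in P7 Ctrl and 2.41 and 1.32 in P7 DKO, and the ISG15 protease gene Usp18 at 0.482 and 0.346 RPKM in P7 Ctrl and 0.28 and 0.292 in P7 DKO. The groups overlapped for Eif2ak2 and lay close together for Usp18. The calls of Irf7 and Xaf1 were lost without any 1 of the 4 P7 libraries: 9 members passed without P7 Ctrl replicate 1, 8 without P7 Ctrl replicate 2, 10 without P7 DKO replicate 1 and 12 without P7 DKO replicate 2, all of them lower. Irf1, Oasl2, Dhx58, Ifi27, Parp9, Parp14, Dtx3l and Samhd1 passed under all 11 alternatives, whereas Adar passed in 3, Stat2 in 7, Bst2 in 8 and Ifi35 in 10.

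Some markers of other cell types and of germ cell stages changed at day 7 as well, where 16.1% of all genes tested were lower and 17.4% higher. The shares of leukocyte and stromal markers that fell were near that of all genes. No Leydig or erythroid marker passed, of 5 and 4 tested. The summed RPKM of 19 leukocyte markers was 25.8 to 26.7 in P7 Ctrl and 10.1 to 14.3 in P7 DKO; 2 of 12 tested fell, Fcer1g and Mrc1, while 8 of the 12 had log2 changes above 0 (median 0.06). Of the leukocyte markers 14 of the 19 were under 1 RPKM in both libraries of each group, and Adgre1 was at 0 in P7 Ctrl. That of 12 endothelial markers was 37.5 to 42.1 and 17.1 to 18.9, with 5 of 10 tested lower and no marker at 0 in both libraries of a group. That of 9 stromal and peritubular markers was 19.06 to 19.09 and 6.19 to 6.84, with 2 of 8 tested lower, 4 of the 8 above 0 (median 0.04), Tcf21 at 0 in both groups and Lum at 0 in P7 DKO. That of 12 Sertoli markers was 195 to 210 and 185 to 267, with none past the threshold (0 at an unadjusted limma p under 0.05). Of 12 germ cell markers 6 fell, Gfra1, Zbtb16, Sall4, Nanos3, Piwil2 and Ddx4, and Sycp3 and Dazl rose, while their sum was 2459 to 2473 and 2303 to 2603. The part of these cells and stages in the changes of the members was not tested.

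At day 3, 1 of 25 tested members was lower in P3 DKO than in P3 Ctrl and none higher, near the share of all genes tested. Over all genes tested, 4.47% were past the threshold, 2.29% lower and 2.18% higher. These 322 higher and 339 lower genes came to 47 and 103 when P3 Ctrl replicate 1 was left out, and to 4 and 6 when replicate 2 was. Leaving out P3 DKO replicate 1 gave 58 and 59, leaving out its replicate 2 gave 10 and 11, and a fit on only the compared libraries gave 11 and 6. All 12 Sertoli markers and 7 of 8 tested stromal and peritubular markers had log2 changes above 0 in P3 DKO, with medians of 0.46 and 0.48 and none past the threshold, and their part in the values of the members was not tested. The median log2 change of the members was 0.16, against 0.01 over all genes tested, and it turned to -0.07 with quantile normalization. Trim25, a ubiquitin ligase that activates RIG-I, stood at 17.1 and 17 RPKM in P3 WT, 16.1 and 18.6 in P3 Ctrl, 11.4 and 11.7 in P3 Jmjd1aKO, 16.8 and 14.8 in P3 Jmjd1bKO and 10.7 and 11.4 in P3 DKO. The P3 DKO libraries lay below both P3 Ctrl libraries and close to those of P3 Jmjd1aKO (1.57-fold lower than P3 Ctrl, log2 change -0.60 ± 0.11, limma adjusted p = 0.0251). At day 7 it stood at 12.6 and 13.5 RPKM in P7 Ctrl and 11.5 and 10.6 in P7 DKO and did not pass between DKO and Ctrl (-0.23 ± 0.11, limma adjusted p = 0.140). The call at day 3 was lost without P3 Ctrl replicate 2, without either P3 DKO library and with only the compared libraries, with limma adjusted p-values up to 0.175 over all alternatives.

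Day 3 values below the threshold pointed both ways: at an unadjusted limma p under 0.05, 4 members were higher and 7 lower, 11 in all of 25. Over all genes tested 24.5% were under that p, 12.5% higher and 12.1% lower. The 4 higher ones were Ifit2, Ddx58, Ifih1 and Herc6. Ddx58 stood at 0.465 and 0.486 RPKM in P3 WT, 1.8 and 1.34 in P3 Ctrl, 2.37 and 1.17 in P3 Jmjd1aKO, 1.35 and 0.628 in P3 Jmjd1bKO and 2.98 and 3.89 in P3 DKO, with both P3 DKO libraries above all others (log2 change 0.79 ± 0.29, limma adjusted p = 0.138). Ifih1 stood at 0.188 and 0.216 RPKM in P3 WT, 0.592 and 0.369 in P3 Ctrl, 0.744 and 0.466 in P3 Jmjd1aKO, 0.351 and 0.296 in P3 Jmjd1bKO and 1.02 and 1.18 in P3 DKO and passed 1 RPKM in P3 DKO alone, which is why it was tested (0.51 ± 0.18, limma adjusted p = 0.122). Ifit2, which curbs translation, stood at 0.713 and 0.841 RPKM in P3 WT, 1.05 and 0.785 in P3 Ctrl, 1.19 and 0.787 in P3 Jmjd1aKO, 1.17 and 0.658 in P3 Jmjd1bKO and 1.7 and 1.53 in P3 DKO, again highest in P3 DKO (0.45 ± 0.18, limma adjusted p = 0.153). The 7 lower ones were Trim25 and Oasl2, Irf1, Dhx58, Ifi35, Ifi27 and Adar, of which the last 6 had log2 changes from -0.84 to -0.29 and limma adjusted p-values from 0.0522 to 0.198. Each of these 6 fell at day 7, but how often this held over all genes tested was not computed. Without the 2 Sertoli-rich libraries, which enter the shared estimate of the spread, 5 members fell in P3 DKO: Trim25, Oasl2, Ifi27, Ifi35 and Irf1. In that setting 1093 of the 14772 genes tested were higher and 838 lower.

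Whether the DKO change differed between the ages was tested by the interaction term. Of the 25 members, 10 had a lower and 1 a higher change at day 7 than at day 3, where 22.9% of all genes tested were past the threshold, 10.7% lower and 12.2% higher. The median difference was -0.69 over the members and -0.03 over all genes tested. The largest differences on the lower side were those of Parp14 (-1.75 ± 0.24), Parp9 (-1.66 ± 0.24) and Dtx3l (-1.62 ± 0.30), with limma adjusted p = 0.00151, 0.00205 and 0.00560; all 3 passed under all 15 alternatives. Bst2, Dhx58, Stat2, Oasl2, Samhd1, Ifih1 and Ifit2 followed with differences from -1.29 to -0.81, of which that of Ifih1 follows in part from the filter, which it passed only through P3 DKO, and Xaf1 differed by 2.87 ± 0.82 in the other direction (limma adjusted p = 0.0320). Irf1, Ifi27 and Ifi35 did not pass (limma adjusted p = 0.0885, 0.205 and 0.351), and Adar differed by -0.07 ± 0.17 (limma adjusted p = 0.814). The count fell to 6 with quantile normalization, where 1191 of the 14772 genes tested were higher and 1262 lower. With 1 library left out, fewer members passed, and fewer of all genes tested did so too. The median difference over the members then ran from -0.77 to -0.58.

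**Figure D4:**
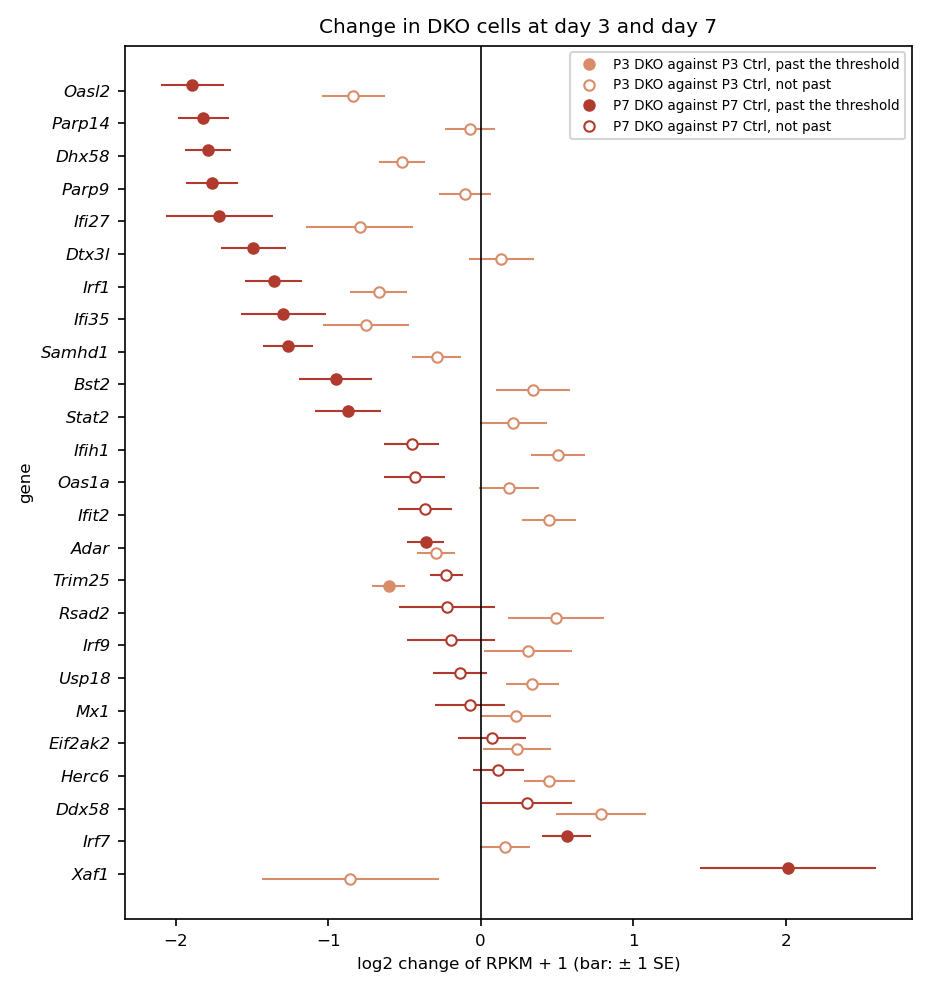
Log2 change of RPKM + 1 (horizontal, ± 1 SE) in P3 DKO (orange) and P7 DKO (red), each against controls of its age, for the 25 tested members (vertical). Filled points are past the threshold: 14 of the red and 1 of the orange, Trim25. Parp14, Parp9 and Dtx3l lie near 0 at day 3, between -0.10 and 0.14, and below -1.4 at day 7.

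Loss of 1 demethylase with 1 copy of the other left changed no member past the threshold. In P3 Jmjd1aKO against P3 Ctrl none of 25 passed, beside 0.0338% of all genes tested. At an unadjusted limma p under 0.05 there were 3, Trim25, Irf1 and Dhx58, all lower, beside 10% of all genes tested. Trim25, at 11.4 and 11.7 RPKM against 16.1 and 18.6, changed by -0.54 ± 0.11, Irf1 by -0.63 ± 0.19 and Dhx58 by -0.43 ± 0.15 on the log2 scale (limma adjusted p = 0.216, 0.359 and 0.394). In P3 Jmjd1bKO against P3 Ctrl none passed, beside 0.0203% of all genes tested, and 0 had an unadjusted limma p under 0.05, beside 1.81%. Kdm3b itself, the gene lost in P3 Jmjd1bKO, did not pass there, so the lack of calls does not show that the members were unchanged. The medians of the members were 0.01 and -0.01, against -0.00 and -0.01 over all genes tested. The comparisons of both single knockouts and of P3 DKO share the P3 Ctrl libraries. Replicate 2 of each single knockout, with the high Sertoli transcripts, held 18.4 and 23.2 RPKM of Xaf1 against 5.50 and 6.12 in replicate 1, and less Rsad2, at 0.561 and 0.688 RPKM against 2.11 and 1.80. The part of the Sertoli transcripts in these values was not tested.

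The Vasa-Cre controls, with 1 copy of each gene, were also compared with wild type at day 3. In P3 Ctrl against P3 WT no member passed, beside 0.704% of all genes tested, and 3 had an unadjusted limma p under 0.05, beside 26.6%. Ddx58 was the higher one, at 1.80 and 1.34 RPKM in P3 Ctrl against 0.465 and 0.485 in P3 WT (log2 change 0.79 ± 0.29, limma adjusted p = 0.133). Oasl2 and Irf1 were the lower ones (-0.69 ± 0.21 and -0.47 ± 0.19, limma adjusted p = 0.0950 and 0.154). Of 17 sensing genes tested, 1 passed, Tlr3, which was lower in P3 Ctrl (log2 change -0.895 ± 0.163, limma adjusted p = 0.0480). P3 WT had the lowest estimated depth. Without the 2 Sertoli-rich libraries, Oasl2 and Xaf1 fell from P3 WT to P3 Ctrl. In that setting 1366 of the 14772 genes tested were higher and 833 lower.

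Between day 3 and day 7 in control cells, 3 members rose and 2 fell, where 23.3% of all genes tested were past the threshold, 9.94% higher and 13.4% lower. Dhx58 rose 2.03-fold (log2 change 0.78 ± 0.15, limma adjusted p = 0.00845), Oasl2 1.99-fold (0.83 ± 0.21, limma adjusted p = 0.0213) and Samhd1 1.52-fold (0.61 ± 0.16, limma adjusted p = 0.0264). These 3 are also among those that fell in P7 DKO, a comparison that shares the P7 Ctrl libraries. Rsad2, or viperin, which makes a chain-terminating nucleotide, stood at 2.03 and 1.93 RPKM in P3 WT, 2.4 and 1.68 in P3 Ctrl, 2.11 and 0.561 in P3 Jmjd1aKO, 1.8 and 0.688 in P3 Jmjd1bKO and 3.4 and 3.1 in P3 DKO. Its P7 levels were 0.434 and 0.424 RPKM in P7 Ctrl and 0.234 and 0.221 in P7 DKO, and all 4 P7 libraries lay below every P3 library (P7 Ctrl against P3 Ctrl -1.08 ± 0.31, limma adjusted p = 0.0358). Trim25 fell by 0.38 ± 0.11 on the log2 scale (limma adjusted p = 0.0335). With 1 of these libraries left out, fewer members passed, and fewer of all genes tested did so too. None of the member calls held in all of these fits. The median log2 change of the members then ran from -0.02 to 0.19, against 0.05 with all libraries.

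The rest of the pathway was read from lists of receptors and signalling genes, of sensing genes, and of other interferon-stimulated genes. Of 16 receptor and JAK-STAT genes, 6 fell and 2 rose in P7 DKO, beside 16.1% lower and 17.4% higher over all genes tested. Ifnar1 and Ifnar2, the type I interferon receptor chains, fell by 0.31 ± 0.10 and 0.64 ± 0.18 on the log2 scale (limma adjusted p = 0.0406 and 0.0231). The kinase gene Tyk2 fell by 0.52 ± 0.12 and the STAT inhibitor gene Pias1 by 0.66 ± 0.11, as did the negative regulators Socs3, by 0.94 ± 0.24, and Ptpn6, by 1.10 ± 0.27 (limma adjusted p = 0.00717, 0.00139, 0.0134 and 0.0118). Ifngr2, a chain of the interferon gamma receptor, and Ptpn2, a phosphatase that acts on JAK and STAT proteins, rose by 0.71 ± 0.24 and 0.45 ± 0.10 (limma adjusted p = 0.0469 and 0.00672). No gene of this list passed in P3 DKO, beside 4.47% of all genes tested. At an unadjusted limma p under 0.05, 1 was higher and 2 lower, beside 24.5% of all genes tested.

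Of 17 sensing genes tested, 3 were higher and 2 lower in P7 DKO, a share near the 33.5% of all genes tested. Tlr3, the endosomal receptor for double-stranded RNA, stood at 6.25 and 5.53 RPKM in P7 Ctrl and 1.81 and 1.36 in P7 DKO (log2 change -1.42 ± 0.16, limma adjusted p = 0.000241), and its adaptor gene Ticam1 fell by 0.78 ± 0.15 (limma adjusted p = 0.00325). Mb21d1, the DNA sensor cGAS, rose from 2.93 and 3.05 RPKM to 7.51 and 7.71 (1.11 ± 0.15, limma adjusted p = 0.000679). Traf6 and Myd88, of Toll-like receptor signalling, rose by 0.55 ± 0.14 and 0.47 ± 0.16 (limma adjusted p = 0.0151 and 0.0489). In P3 DKO none of the 17 passed, with 5 higher and 1 lower at an unadjusted limma p under 0.05, beside 24.5% of all genes tested.

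Other interferon-stimulated genes, 40 tested of 78 present, gave 18 lower and 1 higher in P7 DKO, beside 16.1% lower and 17.4% higher over all genes tested, with a median log2 change of -0.46. The largest falls were in Ifi27l2a, a relative of Ifi27, from 5.87 and 8.58 to 0.305 and 0.159 RPKM (log2 change -2.72 ± 0.35, limma adjusted p = 0.000473), and Parp10, from 5.72 and 7.04 to 0.362 and 0.364 RPKM (-2.43 ± 0.23, limma adjusted p = 9.14e-05). Igtp, an interferon gamma-induced GTPase gene, fell from 4.25 and 4.39 to 0.351 and 0.435 RPKM (-1.93 ± 0.16, limma adjusted p = 5.13e-05), followed by Tor3a (-1.79 ± 0.27) and Pml (-1.61 ± 0.17), with limma adjusted p = 0.000983 and 0.000139. That these 5 did not overlap between the groups follows largely from their choice as the largest falls past the threshold. Parp12 rose, from 30.7 and 30.2 to 54.5 and 53.5 RPKM (0.81 ± 0.11, limma adjusted p = 0.000496), so that members of the PARP family went in both directions. In P3 DKO 3 of the 40 fell, Ifi27l2a by 1.94 ± 0.35, Ifi30 by 0.56 ± 0.13 and Nt5c3 by 0.53 ± 0.09, and none rose (limma adjusted p = 0.0258, 0.0394 and 0.0222), beside 2.29% lower over all genes tested.

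**Figure D5:**
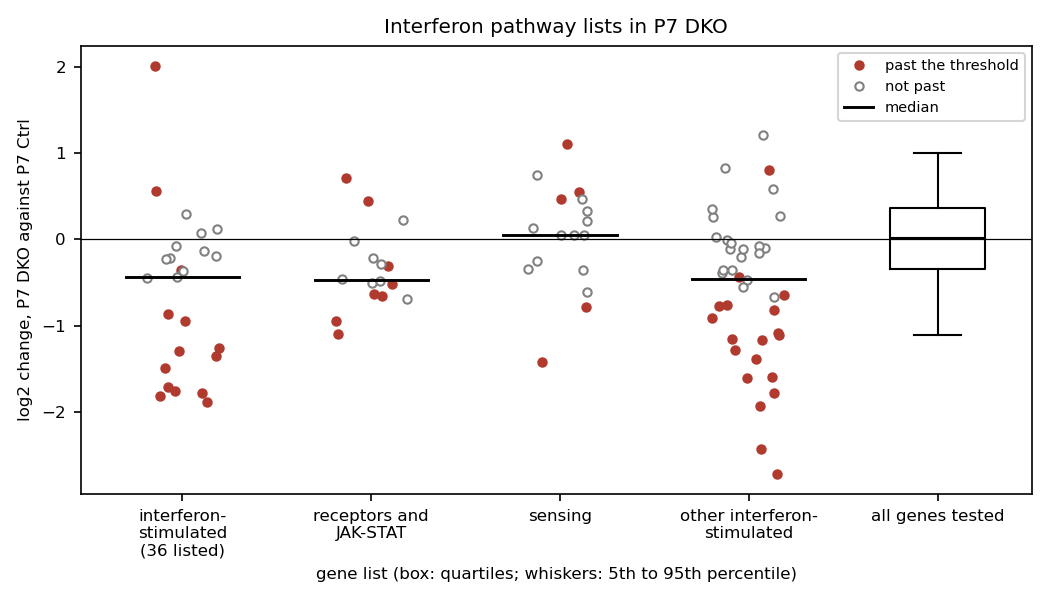
Log2 change of P7 DKO against P7 Ctrl (vertical) for each tested gene of 4 interferon lists (points, red where past the threshold, with the median as a bar) and, as a box with whiskers from the 5th to the 95th percentile, for all 14772 genes tested. The medians lie at -0.43, -0.47, 0.05 and -0.46 for the lists from left to right and at 0.02 for all genes tested.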

How the data were processed

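The authors deposited RPKM values for 24340 gene symbols per library. Per the labels' protocols, RNA came from the AllPrep Micro kit and was prepared with the TruSeq Stranded mRNA kit. The submitters' processing notes name TopHat2 2.1.1, Cufflinks 2.1.1 and mm10, with no role; the annotation is not given in the sources used here. Values were taken as log2(RPKM + 1). The 14772 genes that reached 1 RPKM in 2 or more of the 14 libraries entered the test. Models were fitted with limma 3.58.1 (R 4.3.3, trended eBayes) with 1 coefficient per group over all libraries and 7 residual degrees of freedom. All tests are two-sided, with Benjamini-Hochberg adjustment over all genes tested within each of 7 comparisons and a threshold of 0.05. Log2 changes had a median SE of 0.185 (interaction: 0.262). The model was tested on simulated data. Depth was estimated from the steps between low RPKM values of 8707 genes; 81.0 to 84.8% of the values used lay within 0.2 of a whole fragment, where chance gives 40%. Positions come from GENCODE M21, promoters from RefSeq (26 members matched).

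All 36 members are accounted for, and the genes named with values are those past the threshold in any comparison and the 8 members with the highest mean RPKM. From each other interferon list up to 5 genes past the threshold per comparison were named. Tyk2, Ifnar1, Ptpn2, Ddx58, Eif2ak2, Usp18, Irf9, the low members and the neighbours of Parp9 were added after their values were seen. The members and lists were chosen with earlier results of these data known. Alternatives were a pseudocount of 0.1, no filter, median-centring, quantile normalization, a replicate block, leaving out the 2 libraries with high Sertoli transcripts, fits on the libraries compared only, and leaving out each library. Leaving out 1 library leaves a group of 1, assumed to vary like the others.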

Additional observations from a re-analysis of the deposited data

Results flagged for a closer look

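The change in DKO cells differed between day 3 and day 7 by the interaction term for the following genes, given as the day 7 change minus the day 3 change on the log2 scale with limma adjusted p-values under 0.05. Among the members it was -1.747 for Parp14, -1.662 for Parp9, -1.625 for Dtx3l, -1.293 for Bst2, -1.273 for Dhx58, -1.085 for Stat2, -1.054 for Oasl2, -0.973 for Samhd1, -0.960 for Ifih1, -0.813 for Ifit2 and 2.869 for Xaf1. Of these, Ifih1 and Ifit2 did not pass at either age alone. Ifih1 was tested only because its P3 DKO libraries passed 1 RPKM, so its high level there, and the difference in part, follow from the filter. Ifit2 had its highest levels of the study in P3 DKO and its lowest in P7 DKO.

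In the receptor and signalling list the difference was -1.387 for Ifnlr1, the interferon lambda receptor chain, -0.634 for Pias1, -0.548 for Tyk2 and 0.802 for Ptpn2. In the sensing list it was -1.789 for Tlr3, -0.881 for Irf8 and 1.361 for Mb21d1. Among the other interferon-stimulated genes it was -2.439 for Igtp, -1.499 for Parp10, -1.492 for Oasl1, -1.396 for Trim21 and -1.373 for Pml.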

How the results depend on the processing

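No call of a member changed direction under the alternatives run. Past the threshold in P3 DKO, against 1 member in the analysis reported, were 2 without a filter on low values (Trim25 lower and Ifi44 higher), 2 with median-centring, 3 with quantile normalization, 5 without the libraries with high Sertoli transcripts and 0 with the compared libraries only; leaving out 1 library gave 0 to 1. Between P3 Ctrl and P3 WT, 2 passed without the libraries with high Sertoli transcripts, beside 1366 higher and 833 lower of all 14772 genes tested. In P7 DKO, where 14 passed, leaving out 1 library gave 8 to 12 and every other alternative 13 or 14. For age in controls (5) it gave 0 to 4, and for the difference between the ages (11) 4 to 9, with 6 under quantile normalization. The single knockouts gave 0 under every alternative. Where a count moved with a setting or a library, the cause was not tested.

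Replicate numbers were not taken as pairs, since the labels tie them to no shared animal, litter or day and each comparison has 2 per group. Deviations of same-numbered libraries correlated from -0.13 to 0.581 between groups, at 0.134 between P3 Ctrl and P3 DKO, and at 0.00484 between P7 Ctrl and P7 DKO. With the replicate number as a block, 2 members passed in P3 DKO (Trim25 and Oasl2) and 14 in P7 DKO. For age 7 passed, and for the difference between the ages 11. Of all 14772 genes tested, 546 were then higher and 594 lower in P3 DKO, and 2936 and 2718 in P7 DKO. The same counts were 2003 and 2540 for age, and 2214 and 1951 for the difference between the ages.

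Median-centring moved the split of all genes called in P3 DKO from 322 higher and 339 lower to 277 and 503, and no filter to 1046 and 495; other counts were 125 and 240 (pseudocount 0.1), 225 and 226 (quantile normalization), 546 and 594 (replicate block) and 1093 and 838 (without the libraries with high Sertoli transcripts). In P7 DKO the 2569 higher and 2385 lower genes came to 1304 and 1315 without P7 Ctrl replicate 1, and 1346 and 1328 without P7 Ctrl replicate 2. In P7 DKO the median of the members ran from -0.98 (pseudocount 0.1) to -0.22 (no filter). At 2 libraries per group and a median SE of 0.185, small changes of members near 1 RPKM were not detectable.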

Other observations

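The number of members at 1 RPKM or more was 16 in each P7 Ctrl library, 15 and 12 in P7 DKO, 22 in each P3 DKO library, 20 and 18 in P3 Ctrl, and 17 in each P3 WT library. It was 20 in both P3 Jmjd1aKO libraries, and 20 and 16 in P3 Jmjd1bKO. Besides the genes around Parp9, members that neighbour each other in the genome were Rsad2 and Cmpk2 on chromosome 12, Mx1 and Mx2 on chromosome 16, Ifit2, Ifit3 and Ifit1 on chromosome 19, and Oas2 and Oas1a on chromosome 5. In each of these groups 1 gene was tested (Rsad2, Mx1, Ifit2 and Oas1a), and none of the 4 passed between P7 DKO and P7 Ctrl.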
